A study of Mus musculus with 18 samples.

Results

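The glucocorticoid receptor gene Nr3c1, the steroid-activating enzyme gene Hsd11b1 and 8 genes that glucocorticoids are known to induce (Fkbp5, Tsc22d3, Per1, Zbtb16, Errfi1, Sgk1, Cebpd and Klf9) were followed in mouse kidney cortex. They are 10 of the 15035 genes in the deposited tables and were found there by symbol. Kidney cortex RNA had been sequenced from 18 mice in 6 groups of 3. Vehicle was given to the healthy control animals, of genotype Mrl/Mpj wild type. All 5 remaining groups were Mrl/lpr mice, which carry a defective Fas gene and develop enlarged lymphoid organs and lupus-like nephritis, and they had been given vehicle, MMF (mycophenolate mofetil, which blocks purine synthesis in lymphocytes), FK506 (tacrolimus, a calcineurin inhibitor), prednisone (a glucocorticoid prodrug) or a treatment labelled Multi-target. The labels do not give doses, durations, ages, sex, the hour of harvest or the drugs in the multi-target treatment. All Mrl/lpr mice are of the disease strain and all Mrl/Mpj mice are healthy controls, so strain and disease cannot be told apart in the comparisons with healthy mice, which for the treated groups include the drug as well.

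Glucocorticoids cross the cell membrane and bind the glucocorticoid receptor, which is held in the cytoplasm by a chaperone complex and then moves to the nucleus, where it binds DNA at glucocorticoid response elements or represses inflammatory genes through other factors. In the kidney, Hsd11b1 protein regenerates active steroid from the inactive 11-keto form, while Hsd11b2 inactivates it in aldosterone target cells. Prednisone is itself an 11-keto steroid and needs that activation, most of which occurs in the liver. Endogenous corticosterone rises and falls daily and with stress, and several of the induced genes, Per1 and Klf9 among them, also follow the circadian clock.

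The promoters of the members were read from RefSeq sequence tables (GRCm38.p6), in windows from 250 bases before to 50 bases after each annotated start, 300 bases in all. Windows were found for 7 of the 10 members, 16 windows in all. The 4 printed here are shown because they hold the full glucocorticoid response element or, in genes with none, an E-box or a cAMP response element. The full glucocorticoid response element searched was the letters AGAACA and TGTTCT with any 3 bases between them. On either strand it occurred in 3 of 32851 promoter windows of all genes (0.00913%), and Sgk1 was the only member among them. Capitals mark that element in Sgk1, the E-box CACGTG (bound by clock factors; 7.15% of all windows) in Per1 and Fkbp5, and the cAMP response element TGACGTCA (1.79% of all windows) in Errfi1.
Sgk1, chr10:21993640-21993939, plus strand: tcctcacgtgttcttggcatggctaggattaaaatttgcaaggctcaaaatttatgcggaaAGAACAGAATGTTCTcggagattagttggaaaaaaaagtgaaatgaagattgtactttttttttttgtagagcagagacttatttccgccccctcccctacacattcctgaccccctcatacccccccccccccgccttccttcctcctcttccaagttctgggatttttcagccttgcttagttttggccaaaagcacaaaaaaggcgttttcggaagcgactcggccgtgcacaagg
Per1, chr11:69098699-69098998, plus strand: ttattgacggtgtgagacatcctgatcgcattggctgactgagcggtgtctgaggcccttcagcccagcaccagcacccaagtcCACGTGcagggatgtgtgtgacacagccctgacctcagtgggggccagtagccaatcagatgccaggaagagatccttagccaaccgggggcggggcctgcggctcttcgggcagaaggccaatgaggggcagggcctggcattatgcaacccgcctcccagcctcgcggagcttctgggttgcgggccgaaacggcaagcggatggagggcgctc
Fkbp5, chr17:28486100-28486399, minus strand: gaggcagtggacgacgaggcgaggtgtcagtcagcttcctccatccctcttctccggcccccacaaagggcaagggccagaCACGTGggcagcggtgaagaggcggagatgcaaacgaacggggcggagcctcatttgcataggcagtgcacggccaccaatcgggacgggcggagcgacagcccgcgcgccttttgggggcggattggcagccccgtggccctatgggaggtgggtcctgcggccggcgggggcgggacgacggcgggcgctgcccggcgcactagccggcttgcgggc
Errfi1, chr4:150854820-150855119, plus strand: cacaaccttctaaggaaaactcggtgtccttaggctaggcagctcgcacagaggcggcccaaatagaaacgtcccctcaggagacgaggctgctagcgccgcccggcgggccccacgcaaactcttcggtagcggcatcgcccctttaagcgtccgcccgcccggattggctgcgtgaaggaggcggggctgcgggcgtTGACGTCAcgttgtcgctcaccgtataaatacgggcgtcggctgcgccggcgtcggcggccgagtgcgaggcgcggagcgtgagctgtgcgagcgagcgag

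The first base of the Sgk1 element lies 189 bases before the annotated start. The E-box begins 166 bases before the start of Per1 and 169 bases before that of Fkbp5, and the cAMP response element 51 bases before that of Errfi1. The printed Sgk1 window holds an E-box as well, which is not in capitals. The 6 letters AGAACA alone, on either strand, were found in that window, in further windows of Sgk1 and Tsc22d3 that are not printed, and in 19.0% of all windows. These matches describe letters only, and glucocorticoid response elements of several of these genes are known to lie in introns or far upstream, outside such windows.

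Values below are the deposited log2 values per gene, and a difference of 1 is a 2-fold difference. They are not per length, so levels are compared between mice and not between genes. Differences between groups come from 1 limma model of group means over all 18 libraries, are given with the standard error (3 mice in each group), and were adjusted by the Benjamini-Hochberg method over all 15035 genes, with an adjusted p under 0.05 as the threshold. Shares of all genes given without a direction count higher and lower genes together. Dividing 2 to the power of each value by 1 factor per library gave whole reads for 75.1% to 75.6% of genes. Summed over all genes on that scale, libraries held between 28939849 and 41066959 reads. MMF mice 1, 14 and 27 held the fewest, 32293704, 30223270 and 28939849. Zbtb16 stood at 220 to 2924 reads, Cebpd at 310 to 1528 and Fkbp5 at 3799 to 20955, so counting error was small beside the spread between mice. The 12 proximal tubule markers were all measured, with a mean log2 value per library of 14.14 to 16.21. With no other tissue to set beside them, these values do not test the tissue label. In 2 libraries transcripts of neighbouring tissue stood out: the 9 measured adipocyte markers averaged 11.97 in vehicle mouse 17 and 6.52 to 8.17 elsewhere, and the 8 measured adrenal markers averaged 10.10 in FK506 mouse 12 and 4.84 to 6.24 elsewhere. The tests were repeated without these libraries.

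Nr3c1 (chromosome 18, 39410545 to 39519421, minus strand, GRCm38), which encodes the receptor, was lower in all 15 Mrl/lpr mice than in any healthy mouse, and it was the member with the narrowest spread between mice. Healthy mice 1, 2 and 3 had log2 values of 12.88, 12.82 and 12.86. Vehicle mice 7, 17 and 36 had 12.27, 12.45 and 12.37, and MMF mice 1, 14 and 27 had 12.27, 12.15 and 12.41. FK506 mice 3, 12 and 24 had 12.37, 12.30 and 12.25. The highest of these treated or vehicle values lay below the lowest healthy value. Prednisone mice 23, 29 and 35 had 12.08, 12.49 and 11.99. Multi-target mice 6, 18 and 39 had 12.13, 11.76 and 12.30, and mouse 18 was the lowest of the series.

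Against healthy mice the log2 difference of Nr3c1 was -0.49 ± 0.14 in vehicle mice (adjusted p 0.0225), 0.711 times the healthy level. It was -0.58 in MMF (adjusted p 0.0182), -0.55 in FK506 (adjusted p 0.0307), -0.67 in prednisone (adjusted p 0.006) and -0.79 in multi-target mice (adjusted p 0.00522), all with the same standard error. These 5 comparisons share the 3 healthy mice. Of all genes, 6.66% were below every healthy mouse in all 15 Mrl/lpr mice and 13.3% above, so the separation itself is shared by many genes, and Nr3c1 was the only member with it in either direction. Among the Mrl/lpr groups the means ran from 12.36 in vehicle mice through FK506, MMF and prednisone to 12.06 in multi-target mice, and each neighbouring pair overlapped. Multi-target minus vehicle was -0.30 ± 0.14, with a 95% interval of -0.60 to 0.00 (adjusted p 0.321).

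With fewer mice several of these calls missed the threshold at about the same size. The vehicle call was lost without any 1 healthy mouse, vehicle mouse 7 or vehicle mouse 36 (-0.45 to -0.51, adjusted p 0.0526 to 0.0715). The MMF call was lost without any 1 healthy mouse or MMF mouse 14 (-0.51 to -0.59, adjusted p 0.0543 to 0.0832), and the FK506 call without any 1 healthy or FK506 mouse (-0.52 to -0.58, adjusted p 0.0614 to 0.107). Without vehicle mouse 17 and FK506 mouse 12 together, the FK506 difference was -0.55 (adjusted p 0.125) and the vehicle difference -0.54 (adjusted p 0.0408). In bulk tissue fewer cells of a type and less RNA per cell cannot be told apart. Lymphocytes and tubules both express the receptor, and both kinds of marker differed in vehicle against healthy mice. There 13 of 16 measured leukocyte markers rose and 4 of 12 proximal tubule markers fell, where 15.7% of all genes rose and 6.76% fell. The leukocyte count was 11 to 14 with any 1 mouse left out. That of the proximal tubule markers was 1 without any 1 healthy mouse (median -1.07 to -1.12, against -1.09 in full) and 0 without vehicle mouse 36 (median -0.71). Their part in the difference was not tested.

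Hsd11b1 (chromosome 1, 193221634 to 193264075, minus strand), the enzyme that regenerates active glucocorticoid, was higher on average in vehicle than in healthy mice, just short of the threshold. Log2 values were 10.50, 10.04 and 10.58 in the healthy mice, 11.44, 11.45 and 10.90 in vehicle mice 7, 17 and 36, and 10.84, 11.73 and 10.62 in MMF mice 1, 14 and 27. FK506 mice 3, 12 and 24 had 10.26, 11.15 and 10.12. Vehicle and healthy mice did not overlap, and FK506 mouse 12, the library with adrenal transcripts, was the highest of its group. Prednisone mice 23, 29 and 35 had 10.96, 10.57 and 11.31, and multi-target mice 6, 18 and 39 had 10.99, 10.68 and 11.17. In all, 12 of the 15 Mrl/lpr mice lay above the highest healthy value. The difference of vehicle from healthy mice was 0.89 ± 0.31 (adjusted p 0.0523), and that of FK506 from vehicle mice was -0.75 ± 0.31 (adjusted p 0.208). Without the 2 libraries that held other tissue these were 0.80 (adjusted p 0.0869) and -0.98 (adjusted p 0.246).

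Fkbp5 (chromosome 17, 28399094 to 28517527, minus strand) encodes a co-chaperone that lowers the receptor's affinity for steroid, so it closes a feedback loop. It had values above the healthy range in 14 of 15 Mrl/lpr mice, and rose against healthy mice in the MMF and prednisone groups. Healthy mice lay close together at 12.16, 12.30 and 12.08, while vehicle mice 7, 17 and 36 spread over 13.34, 12.62 and 12.07. MMF mice 1, 14 and 27 had 13.27, 14.72 and 14.06, and FK506 mice 3, 12 and 24 had 14.15, 13.66 and 13.06. Vehicle mouse 7 therefore reached the lower end of each of those treated groups, and vehicle mouse 36 was the 1 Mrl/lpr animal not above the healthy mice. Prednisone mice 23, 29 and 35 had 13.50, 13.58 and 14.45, each above every vehicle mouse. Multi-target mice 6, 18 and 39 had 13.53, 14.54 and 12.58, a range that covers most of the other Mrl/lpr values.

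Against healthy mice Fkbp5 rose by 1.84 ± 0.48 in MMF mice (adjusted p 0.0228), a 3.58-fold difference, and by 1.66 ± 0.48 in prednisone mice (adjusted p 0.0287). The differences of FK506 (1.44, adjusted p 0.077) and multi-target mice (1.37, adjusted p 0.0939) did not pass. Against vehicle mice none of the 4 treatments passed: MMF gave 1.34 ± 0.48 (adjusted p 0.0966), prednisone 1.16 (adjusted p 0.943), FK506 0.95 (adjusted p 0.279) and multi-target 0.87 (adjusted p 0.383). Without any 1 healthy mouse the differences stayed at 1.79 to 1.90 in MMF and 1.61 to 1.72 in prednisone mice but did not pass. The MMF call was also lost without mouse 14 (1.49, adjusted p 0.112) or mouse 27 (1.82, adjusted p 0.0645). The prednisone call was also lost without mouse 35 (1.36, adjusted p 0.125) or mouse 23 (1.83, adjusted p 0.0567), and when library medians were aligned (1.46, adjusted p 0.0509).

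Zbtb16 (chromosome 9, 48654297 to 48836222, minus strand), a zinc finger repressor also called PLZF, had the largest difference of the 10 members from healthy mice. Healthy values were 8.03, 8.05 and 8.67, and vehicle mice 7, 17 and 36 had 8.83, 10.33 and 8.61. MMF mice 1, 14 and 27 had 10.10, 12.02 and 10.70. FK506 mice 3, 12 and 24 had 10.70, 10.02 and 9.51. Every MMF and FK506 mouse stood above the healthy mice, and vehicle mouse 17, with the adipocyte transcripts, stood well above the other vehicle mice. Prednisone mice 23, 29 and 35 were close together at 10.38, 10.75 and 10.78, above all vehicle mice. Multi-target mice 6, 18 and 39 had 8.57, 10.39 and 9.80, so mouse 6 fell within the healthy range.

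Zbtb16 rose against healthy mice by 2.69 ± 0.54 in MMF mice (adjusted p 0.00841), a 6.45-fold difference, and by 2.38 ± 0.54 in prednisone mice (adjusted p 0.00948). Both calls held under each of 15 alternative settings, with the MMF difference between 2.15 and 3.11 and the prednisone difference between 2.15 and 2.59. FK506 (1.83, adjusted p 0.0533) and multi-target mice (1.34, adjusted p 0.143) did not pass. Against vehicle mice MMF gave 1.68 ± 0.54 (adjusted p 0.0792) and prednisone 1.38 (adjusted p 0.943). Without the 2 libraries with other tissue those differences were larger, 2.22 (adjusted p 0.113) and 1.91 (adjusted p 0.925), and that of vehicle from healthy mice was 0.47 in place of 1.01.

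**Figure D1:**
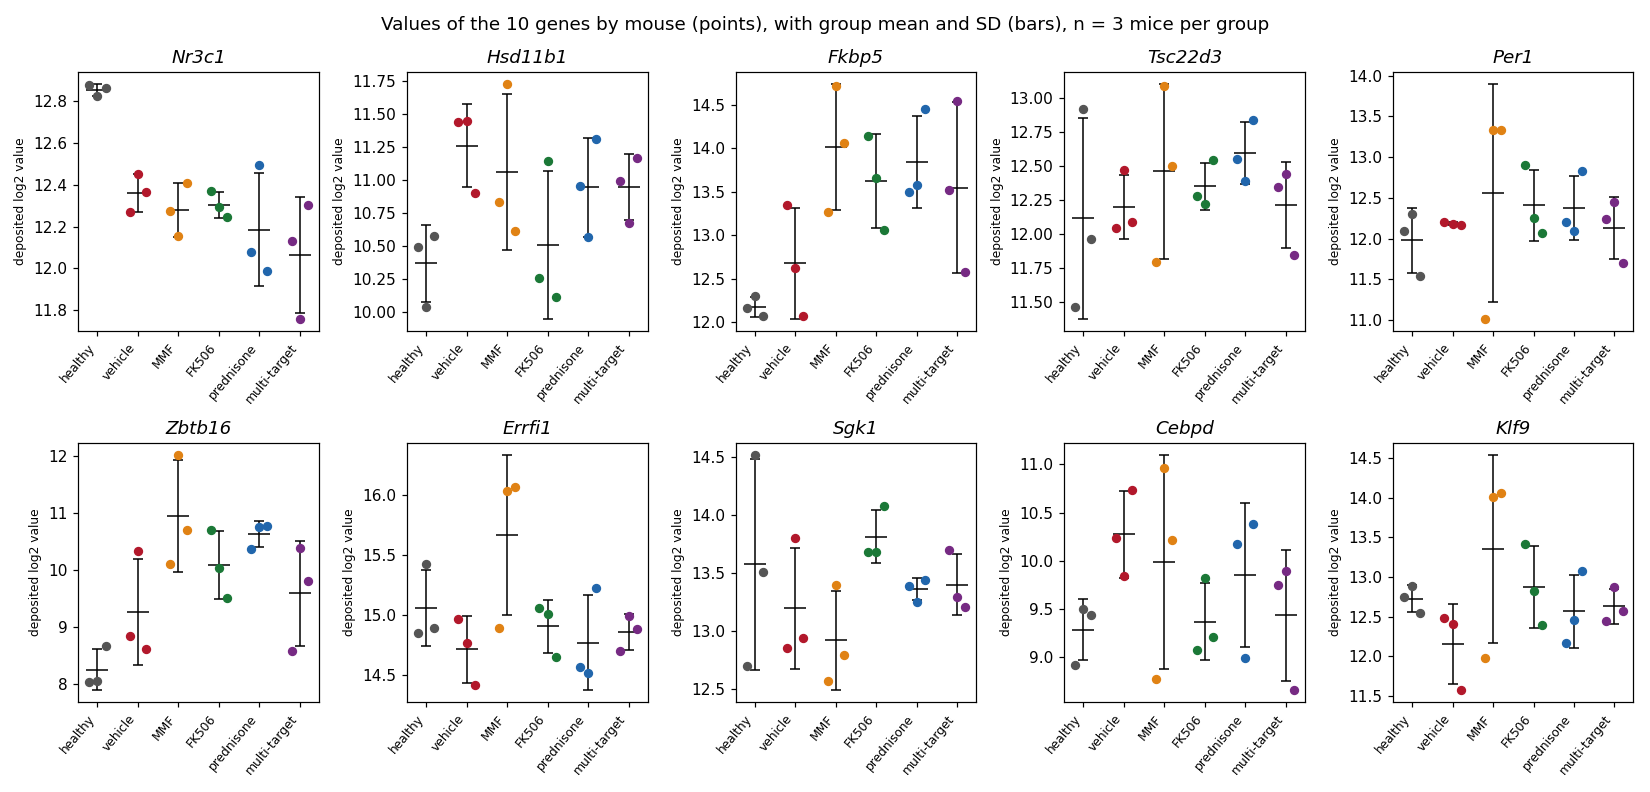
Deposited log2 value (vertical axis) of each of the 10 genes in every mouse, by group (horizontal axis); points are mice and bars the group mean with its SD (n = 3). Nr3c1 lies lower in all 15 Mrl/lpr mice (11.76 to 12.49) than in the healthy mice (12.82 to 12.88), and the 3 MMF mice are far apart for Per1, Klf9 and Errfi1.

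Tsc22d3 (chromosome X, 140539528 to 140600659, minus strand), which encodes GILZ, an anti-inflammatory leucine zipper protein used as a marker of glucocorticoid action, did not separate the groups. Values were 11.46, 12.92 and 11.97 in healthy mice, 12.04, 12.47 and 12.09 in vehicle mice, and 11.80, 13.09 and 12.50 in MMF mice 1, 14 and 27. FK506 mice had 12.28, 12.22 and 12.55, prednisone mice 23, 29 and 35 had 12.55, 12.39 and 12.84, and multi-target mice had 12.34, 12.44 and 11.85. Healthy mice alone spanned nearly the whole range. The group means ran from 12.60 in prednisone to 12.12 in healthy mice with every neighbouring pair overlapping. Prednisone minus vehicle was 0.40 ± 0.33, with a 95% interval of -0.32 to 1.11 (adjusted p 0.943), so neither no difference nor a 2-fold one lay outside it.

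Per1 (chromosome 11, 69095217 to 69109960, plus strand), a core repressor of the circadian clock, and Klf9 (chromosome 19, 23141226 to 23168134, plus strand), a zinc finger factor induced by glucocorticoid and thyroid hormone, split the MMF group. Per1 stood at 11.01 in MMF mouse 1, the lowest value of the series, and at 13.34 and 13.33 in MMF mice 14 and 27, the 2 highest. Klf9 stood at 11.98 in MMF mouse 1 and at 14.02 and 14.06 in mice 14 and 27. The MMF group thus held both ends of the Per1 range. Other Per1 values were 12.09, 12.30 and 11.54 in healthy mice, 12.20, 12.18 and 12.17 in vehicle mice and 12.90, 12.26 and 12.06 in FK506 mice. Prednisone mice had 12.21, 12.09 and 12.82 and multi-target mice 12.23, 12.45 and 11.70. Outside the MMF group no Per1 value left the interval from 11.54 to 12.90.

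Klf9 had 12.75, 12.88 and 12.54 in healthy mice and 12.49, 12.41 and 11.57 in vehicle mice, which did not overlap. FK506 mice 3, 12 and 24 had 13.41, 12.82 and 12.39, prednisone mice had 12.17, 12.46 and 13.07, and multi-target mice had 12.45, 12.88 and 12.57. These groups overlapped with the vehicle or the healthy mice or both. MMF minus vehicle was 1.20 ± 0.45 for Klf9 (adjusted p 0.107) and 0.38 ± 0.47 for Per1 (adjusted p 0.597).

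Errfi1 (chromosome 4, 150853919 to 150868892, plus strand), a feedback inhibitor of the EGF receptor also called Mig6, followed the same split at a smaller scale. MMF mouse 1 had 14.89, beside 16.03 and 16.07 in MMF mice 14 and 27. All other mice lay between 14.42 and 15.42: healthy 14.85, 15.42 and 14.89, vehicle 14.96, 14.76 and 14.42, FK506 15.06, 15.01 and 14.65, prednisone 14.57, 14.52 and 15.22, and multi-target 14.70, 14.99 and 14.88. MMF minus vehicle was 0.95 ± 0.29 (adjusted p 0.0709). In an F test for any difference among the 5 Mrl/lpr groups Errfi1 had the smallest p of the members (0.0293, adjusted p 0.318).

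Sgk1 (chromosome 10, 21882184 to 21999903, plus strand), a kinase that promotes sodium channel activity and responds to both glucocorticoid and aldosterone, varied most among healthy mice, at 12.70, 14.52 and 13.50. Vehicle mice 7, 17 and 36 had 12.86, 13.80 and 12.93, MMF mice had 12.57, 13.40 and 12.79, and FK506 mice had 13.68, 13.68 and 14.07. Prednisone mice were tight at 13.39, 13.25 and 13.44, and multi-target mice had 13.69, 13.29 and 13.21. The FK506 mice lay above all MMF and all prednisone mice. MMF minus FK506 was -0.89 ± 0.36 (adjusted p 0.866), and 5.31% of all genes were lower in MMF than FK506 mice with no overlap. Prednisone minus FK506 was -0.45 ± 0.36 (adjusted p 0.982), a comparison in which 2.35% of genes were lower with no overlap.

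Cebpd (chromosome 16, 15887286 to 15891031, plus strand), a transcription factor of the acute phase response that inflammatory cytokines also induce, was above the healthy mice in each vehicle mouse. Values were 8.92, 9.50 and 9.43 in healthy mice, 10.24, 9.84 and 10.74 in vehicle mice 7, 17 and 36, and 8.77, 10.97 and 10.21 in MMF mice 1, 14 and 27. FK506 mice had 9.07, 9.83 and 9.21, just below the vehicle mice without overlap. Prednisone mice had 10.17, 8.99 and 10.38, and multi-target mice had 9.75, 9.90 and 8.66. Vehicle minus healthy was 0.99 ± 0.50 (adjusted p 0.161) and FK506 minus vehicle -0.90 ± 0.50 (adjusted p 0.318), and neither passed.

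Across the comparison of vehicle with healthy mice 1 of 10 members passed, Nr3c1, where 22.4% of all genes did (15.7% higher, 6.76% lower). In 4 of 10 members the groups did not overlap, Hsd11b1 and Cebpd above and Nr3c1 and Klf9 below, against 52.4% of all genes. The members' median difference was 0.14 and that of all genes 0.09.

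With treatment against healthy mice, 3 members passed in MMF mice (Nr3c1, Fkbp5, Zbtb16; 15.9% of all genes), the same 3 in prednisone mice (16.7%), and Nr3c1 alone in FK506 (7.27%) and multi-target mice (6.98%). Prednisone minus healthy was the one comparison in which the median of all genes was shifted by over 0.1, to 0.131. The direction of Nr3c1, Fkbp5 and Zbtb16 held under library median alignment and quantile normalization. That Fkbp5 and Zbtb16 passed in MMF and prednisone mice and not in the other 2 groups does not show a difference between treatments: no member passed in any comparison of 2 treated groups.

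Against vehicle mice 0 of 10 members passed in each treatment by limma. In MMF mice 1.58% of all genes passed (0.133% higher, 1.45% lower), and 4 of 10 members (Fkbp5, Zbtb16, Errfi1 and Klf9, all higher) had an unadjusted p under 0.05, as did 29.9% of all genes. In FK506 mice 0% of genes passed; 1 member, Hsd11b1, had an unadjusted p under 0.05 against 19.9% of genes, and Cebpd was lower without overlap, as were 12.2%. In prednisone mice 0% passed and 2 members, Fkbp5 and Zbtb16, had an unadjusted p under 0.05 (0.0274 and 0.0226) against 3.15% of genes. The same 2 were higher without overlap, as were 5.41% of genes. In multi-target mice 0% passed, and no member had an unadjusted p under 0.05 against 15.6% of genes. Median differences of the members were 0.32 in MMF, 0.21 in FK506, 0.18 in prednisone and 0.08 in multi-target mice, beside -0.05, -0.01, 0.03 and -0.02 for all genes. With 1 mouse left out at a time the members' median ranged from -0.01 (without MMF mouse 14) to 0.87 (without MMF mouse 1) in MMF and from 0.15 (without FK506 mouse 3) to 0.36 (without FK506 mouse 24) in FK506 mice. It ranged from 0.05 (without prednisone mouse 35) to 0.33 (without vehicle mouse 17) in prednisone and from -0.09 (without multi-target mouse 18) to 0.18 (without multi-target mouse 39) in multi-target mice. These 4 comparisons share the vehicle mice.

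**Figure D2:**
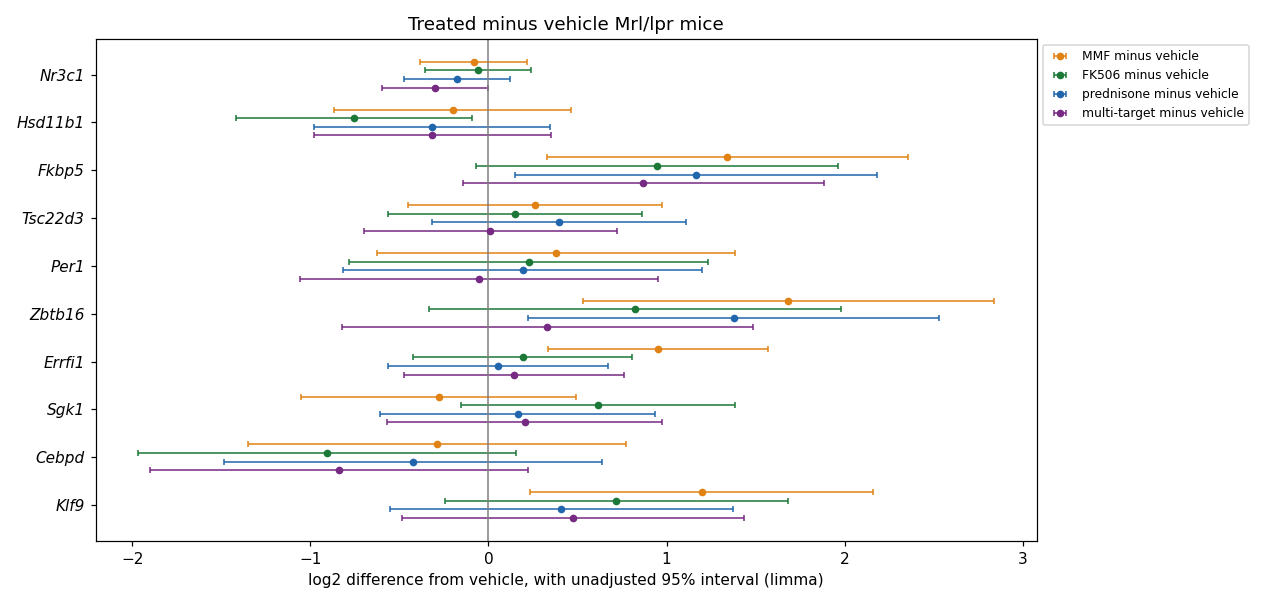
Log2 difference of each treated group from vehicle Mrl/lpr mice (horizontal axis) for the 10 genes (vertical axis), with 95% intervals from limma (n = 3 per group). Zbtb16 and Fkbp5 lie to the right of 0 in all 4 groups, from 0.33 to 1.68 and from 0.87 to 1.34, and no difference passed adjustment over all genes. The Zbtb16 difference of multi-target mice turned to -1.11 with array weights (adjusted p 0.0841) and to -0.07 without multi-target mouse 18.

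Between treated groups 0 of 10 members and 0% of genes passed in each of the 6 comparisons and in the F test. At an unadjusted p under 0.05 there were 2 members in multi-target minus MMF (Zbtb16 -1.35 and Errfi1 -0.81; 7.49% of genes), 1 in prednisone minus MMF (Errfi1 -0.90; 13.7%) and 2 in MMF minus FK506 (Errfi1 0.76 and Sgk1 -0.89; 5.65%). There were 0 in multi-target minus FK506 (0.406% of genes), multi-target minus prednisone (3.35%) and prednisone minus FK506 (2.83%). In the F test Errfi1 and Zbtb16 were under 0.05 unadjusted, as were 13.8% of genes. Prednisone and FK506 mice differed by 0.22 ± 0.48 for Fkbp5, and prednisone and MMF mice by -0.18 ± 0.48, so these groups could not be ranked for the co-chaperone.

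Mice of 1 group differed more for these genes than for most. The pooled SD within groups was 0.734 for Zbtb16, 0.674 for Cebpd, 0.644 for Fkbp5, 0.639 for Per1 and 0.61 for Klf9, each above that of 93.8% of genes or more, beside 0.225 for the median gene. Sgk1, Tsc22d3, Hsd11b1 and Errfi1 lay at percentiles 88.8, 86.4, 83.9 and 80. The receptor was different, with an SD of 0.173 at percentile 32.1.

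Within a group the same animals tended to be high or low for several members. MMF mouse 1 was the lowest of its group for 8 of the 10 genes and the highest for 0, while MMF mouse 14 was the highest for 7 and mouse 27 for the other 3. Prednisone mouse 35 was the highest of its group for 9 genes, all but Nr3c1. Multi-target mouse 18 was the highest for 7, healthy mouse 2 for 7 and FK506 mouse 3 for 6. The members share each mouse's library, so these counts are not independent observations. No such count over all genes is given here, so the order of mice is not shown to be particular to these genes.

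**Figure D3:**
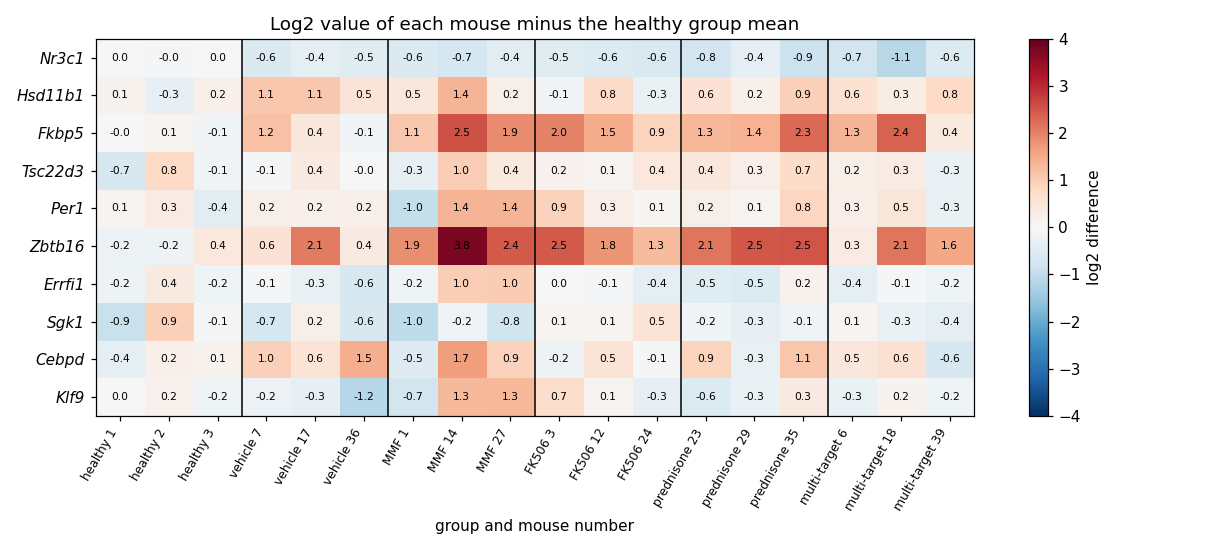
Log2 value of each gene (rows) in each mouse (columns) minus the mean of the 3 healthy mice, as colour. MMF mice 14 and 27 are above the healthy mean for Per1, Klf9 and Errfi1 while MMF mouse 1 is below it, and the Nr3c1 row is below 0 in all 15 Mrl/lpr mice.

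The count of members called in MMF against vehicle mice depended on single mice. MMF mouse 1 was singled out here because it was the lowest of its group for 8 members, so leaving it out raises them by construction. Without it 5 of 10 members rose: Klf9 by 1.88 (adjusted p 0.00185), Errfi1 by 1.34 (adjusted p 0.0022), Per1 by 1.15 (adjusted p 0.00873), Zbtb16 by 2.10 (adjusted p 0.0134) and Fkbp5 by 1.72 (adjusted p 0.0186). Over all genes 36.8% then passed in either direction, up from 1.58%. Without vehicle mouse 7 instead, Fkbp5 (1.68, adjusted p 0.0478) and Errfi1 (1.08, adjusted p 0.0459) passed, with 12.9% of genes.

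The counts in the other comparisons of MMF mice also rose without mouse 1. Against multi-target mice Per1, Zbtb16, Errfi1 and Klf9 passed, all higher in MMF, with 16.8% of genes; against prednisone mice Per1, Errfi1 and Klf9 passed, with 16.1%; and against FK506 mice Errfi1 and Klf9 passed, with 9.2%. Against healthy mice 7 of 10 members then passed, where 38.6% of genes did, and in the F test 2 of 10 with 13.9%. The labels give nothing by which mouse 1 differs from mice 14 and 27. Its 16 leukocyte markers averaged 8.79, against 7.99 and 7.83, and its 12 proximal tubule markers 15.68, against 14.61 and 14.64. The part of these in the split was not tested.

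The 20 genes of receptor partners and steroid metabolism, among them heat shock proteins, coactivators, corepressors and Hsd11b2, had few calls. In vehicle against healthy mice 3 fell and 0 rose: Abcb1a (-0.89 ± 0.21, adjusted p 0.00959) and Abcb1b (-1.0, adjusted p 0.0386), drug efflux pumps that export glucocorticoids, and Ncor1 (-0.33, adjusted p 0.0459), a corepressor. Of all genes 6.76% fell there and 15.7% rose. For receptor partners and steroid metabolism the count that fell was 0 without healthy mouse 1 and 1 without healthy mouse 2 or 3 or vehicle mouse 17 or 36, and without vehicle mouse 7 there were 2 that fell and 2 that rose. Abcb1a fell in each treated group against healthy mice too, by 0.77 to 0.93. Without healthy mouse 1, 0 of the 20 genes fell in any treated group against healthy mice. Without healthy mouse 2, 0 fell in MMF, FK506 and multi-target mice and 1 in prednisone mice. Against vehicle mice 0 of 20 passed in each treatment, with list medians from -0.20 in MMF to 0.05 in prednisone mice. The chaperone gene Hsp90ab1 gave -0.73 in MMF mice (adjusted p 0.105). In prednisone mice the list genes of smallest p were Hsp90ab1 (-0.57, adjusted p 0.943) and Hsp90aa1 (-0.66, adjusted p 0.943).

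Of 31 other glucocorticoid-induced genes 29 were measured. In vehicle against healthy mice 6 rose and 1 fell, with a median of 0.11 beside 0.09 for all genes, of which 15.7% rose and 6.76% fell. Those that rose included Lcn2 (4.43 ± 1.18, adjusted p 0.0164), a protein of injured tubules, Rhob (1.87, adjusted p 0.0166), Ampd3 (0.73, adjusted p 0.00636) and Nfkbia (1.35, adjusted p 0.0259), the inhibitor of NF-kappaB. The one that fell was Pck1 (-1.65 ± 0.47, adjusted p 0.0224), the gluconeogenic enzyme. Over the other glucocorticoid-induced genes 1 rose without healthy mouse 1, 1 without vehicle mouse 36 and 3 without healthy mouse 3, and 3 fell without vehicle mouse 17. Several of these genes are induced by inflammation or injury as well.

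In MMF against vehicle mice Pck1 rose by 2.15 ± 0.47 (adjusted p 0.0459) and the other 28 did not pass, where 0.133% of all genes rose. The median over the 29 other glucocorticoid-induced genes was 0.64 beside -0.05 for all genes, and 21 of 29 differences were above 0. Without MMF mouse 1 the median was 0.99 and 14 rose, where 36.8% of all genes passed in either direction. Without MMF mouse 14 it was 0.35 and 0 rose, and 0 rose also without MMF mouse 27 or vehicle mouse 17 or 36. In prednisone mice 0 passed, 23 of 29 differences were above 0 and the median was 0.43 beside 0.03, or 0.17 without prednisone mouse 35. The smallest p values there belonged to Usp2 (0.75, adjusted p 0.943) and Pck1 (0.91, adjusted p 0.943). FK506 and multi-target mice had medians of 0.20 and 0.17 with 0 passing.

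Against healthy mice 6 of these 29 rose in MMF, 7 in prednisone, 3 in multi-target and 2 in FK506 mice, and 0 fell. Of all genes 15.9%, 16.7%, 6.98% and 7.27% passed in these comparisons, higher and lower together. The counts moved with single mice. For the other glucocorticoid-induced genes the MMF count was 0 without healthy mouse 1 or 3 or MMF mouse 14. Without MMF mouse 1 it was 15, where 38.6% of all genes passed in either direction. The prednisone count ran from 1 without healthy mouse 1 to 9 without prednisone mouse 29. The multi-target count ran from 0 (without healthy mouse 1 or 3 or multi-target mouse 6 or 18) to 4 without multi-target mouse 39. The FK506 count ran from 0 (without healthy mouse 1 or 3 or FK506 mouse 3 or 12) to 1. Rgcc, a regulator of the cell cycle, rose in all 4, by 1.73 to 1.80. Cdkn1a, which encodes the cell cycle inhibitor p21, rose by 2.49 in MMF and 2.0 in prednisone mice. Ampd3 rose by 0.92 in prednisone, 0.58 in FK506 and 0.57 in multi-target mice.

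Of 20 inflammatory genes that glucocorticoids repress, 15 were measured. In vehicle against healthy mice 10 rose and 0 fell, with a median of 2.40 beside 0.09 (15.7% of all genes rose): Il1b by 3.61 (adjusted p 3.68e-05), Ccl4 by 3.24, Icam1 by 1.84 and Ccl5 by 4.94 led by p. Against vehicle mice Ccl4 fell by 2.31 in MMF mice (adjusted p 0.0486), where 1.45% of all genes fell. No other gene of the list passed in any treatment. For these glucocorticoid-repressed inflammatory genes leaving out vehicle mouse 7 gave 7 that fell in MMF mice, where 12.9% of all genes passed in either direction. Leaving out MMF mouse 1 gave 9 (36.8%), and leaving out any other MMF or vehicle mouse gave 0. The medians were -1.22 in MMF, -1.31 in FK506, -1.23 in multi-target and -0.54 in prednisone mice. In vehicle mouse 36 the 15 genes averaged 10.15, beside 8.06 and 8.44 in the other vehicle mice. Without it the medians were -1.13 in MMF, -0.80 in FK506, -0.60 in multi-target and 0.07 in prednisone mice, and that of vehicle minus healthy mice was 1.33. The prednisone median was -1.08 without prednisone mouse 23, -0.33 without mouse 29 and -0.89 without vehicle mouse 7. Leukocyte markers moved in the same comparisons: 13 of 16 rose in vehicle against healthy mice (Ptprc, the pan-leukocyte antigen CD45, by 2.45). In MMF against vehicle mice 3 of 16 fell (Ptprc -1.64, Cd68 -2.01, Lck -1.81), where 1.45% of all genes fell. The same 6 removals gave counts for the leukocyte markers of 12, 13 and, for the other 4 mice, 0. Their mean per mouse was 7.25 to 7.38 in healthy, 8.94 to 10.02 in vehicle, 7.83 to 8.79 in MMF, 8.62 to 8.72 in FK506, 8.59 to 9.59 in prednisone and 8.06 to 8.69 in multi-target mice. Their part in the inflammatory values was not tested.

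Because Per1 and Klf9 also follow the clock, 18 other circadian clock genes were read in the same mice. In MMF mouse 1 they averaged 10.39, and in mice 14 and 27 they averaged 11.32 and 11.33, the 2 highest of the series. Healthy mice lay at 10.85 to 10.88. The other glucocorticoid-induced genes averaged 11.12 in MMF mouse 1, and 12.39 and 11.78 in MMF mice 14 and 27. Receptor partners and steroid metabolism averaged 12.25, 12.24 and 12.20 in MMF mice 1, 14 and 27. Against vehicle mice 0 of 18 clock genes passed in MMF mice, with a median of 0.50 and 16 of 18 above 0. Without MMF mouse 1, 5 rose and the median was 0.75, where 36.8% of all genes passed in either direction. Against healthy mice the activators Arntl (0.99, adjusted p 0.0144) and Npas2 (1.11) rose in MMF mice, Arntl rose in FK506 (0.92) and multi-target mice (0.95), Npas2 rose in multi-target mice (0.92), and Bhlhe40 fell in prednisone mice (-0.65). Hlf, an output factor of the clock, fell in vehicle against healthy mice (-1.25 ± 0.33, adjusted p 0.016). None of these clock genes passed against healthy mice without healthy mouse 1. The hour of harvest was not tested as a source, since the labels do not give it.

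**Figure D4:**
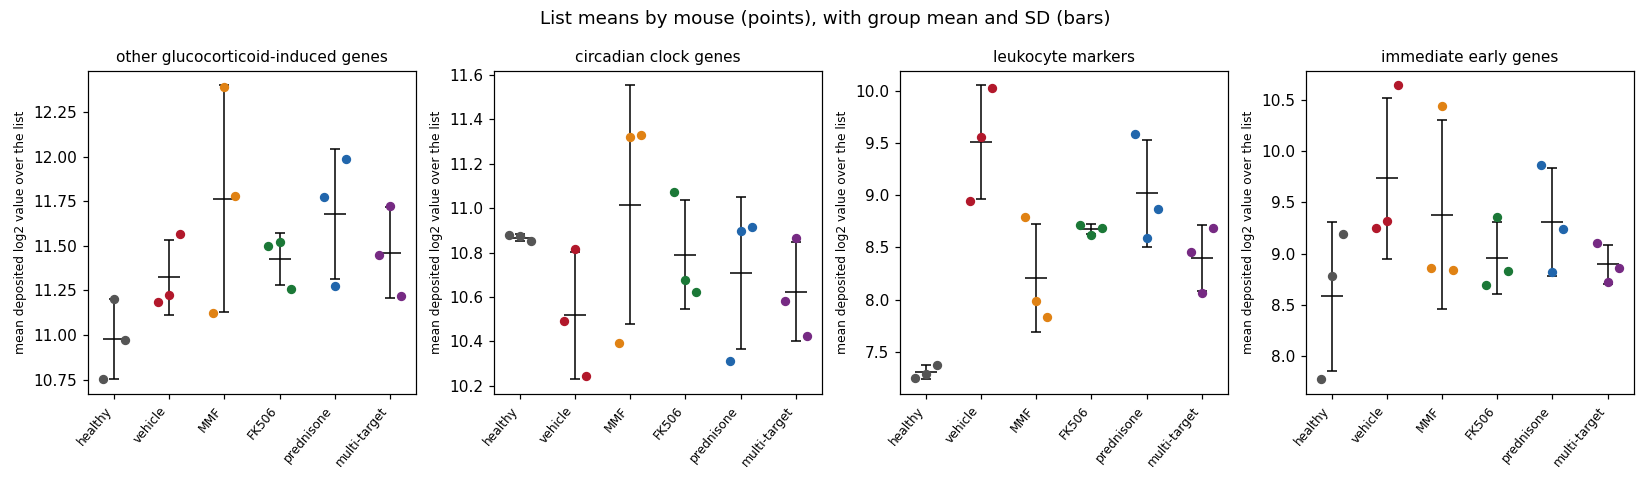
Mean log2 value per mouse (vertical axis) over the other glucocorticoid-induced genes, circadian clock genes, leukocyte markers and immediate early genes, by group (horizontal axis); each point is a mouse, and bars give the group mean and SD (n = 3). For the circadian clock genes MMF mice 14 and 27 (11.32 and 11.33) lie above all others and MMF mouse 1 (10.39) near the bottom, and leukocyte markers are lowest in healthy mice (7.25 to 7.38).

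For 4 members the genes most alike over the 18 mice were found by the root mean square difference of centred log2 values, as a description. Nearest to Fkbp5 were Nrbp2 (0.29), Izumo4 (0.33) and Fgfbp1 (0.33), where the median gene was at 0.87. Nearest to Per1 were Dcun1d3 (0.23), Fam199x (0.24) and Pou2f1 (0.24), with 0.60 for the median gene. Nearest to Hsd11b1 were Pdgfra (0.22), a receptor of fibroblasts, Scn7a (0.22) and Gabra3 (0.24), with 0.52 for the median gene. Nearest to Tsc22d3 were Arhgef26 (0.26), Rusc2 (0.28) and Vasn (0.28), with 0.47. Among the members themselves the closest pairs were Errfi1 with Klf9 (0.29), Per1 with Klf9 (0.37) and Tsc22d3 with Sgk1 (0.41). The last lies near the 0.47 of the median gene from Tsc22d3, and the measure depends on the size of each gene's spread. Fkbp5 had no member nearer than Per1 at 0.65. Tsc22d3, the other usual marker of glucocorticoid action, was not its nearest, but the SDs within groups differed (0.644 for Fkbp5, 0.448 for Tsc22d3). Values were not scaled to this spread, so the distance does not tell whether the 2 genes varied together.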

How the data were processed

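RNA from frozen kidney cortex had been sequenced after TruSeq library construction, per the labels' protocols. Each deposited file gives 1 log2 value for each gene symbol; limma and mm10 are named in the submitters' processing notes, and the aligner is not given in the sources used here. Powers of 2 of the deposited values were whole reads times 1 factor per library, within 0.001 reads (scaled above 5000 reads), for 75.1% to 75.6% of genes, including 6 members; how the rest, with Hsd11b1, Tsc22d3, Sgk1 and most Per1 values, were summarised is unknown. All 15035 rows were fitted as deposited, without filter or pseudocount, in limma 3.58.1 (R 4.3.3) with a trended prior variance, and the 15 pairwise comparisons and an F test among Mrl/lpr groups were each adjusted by Benjamini-Hochberg. The fit was tested on simulated data. Alternatives were other normalizations, array weights, other prior variances, a filter on the lowest 25% of genes, 16 added to the linear value, only the 2 groups compared, and each mouse left out.

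The members and lists were chosen with earlier results of these data known. All 10 members are named with every mouse's value; from each list, up to 4 genes that passed by smallest p are named, otherwise the 2 of smallest p, though Nfkbia, Cdkn1a and a few repeats across comparisons were chosen after their values were seen. A result on 1 further list gene is not reported here. List counts without single mice were added after seeing the data. Gene locations are from GENCODE M21, with no conversion. The 3 mice of a group are separate animals, so p-values weigh group differences against the spread between mice. For each gene that spread was taken as equal in all 6 groups. The SDs of single groups could differ widely, as for Per1 (0.0155 in vehicle and 1.34 in MMF mice).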

Additional observations from a re-analysis of the deposited data

How the results depend on the processing

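No called difference of a member changed sign under any alternative, though the uncalled Zbtb16 difference of multi-target from vehicle mice turned from 0.33 to -1.11 with array weights. Counts not named here were within 1.5 times. Fitting only the 2 groups compared, 3 members passed in vehicle minus healthy (2795 of 15035 genes) and 3 in FK506 minus healthy (3673 genes). Without vehicle mouse 17 and FK506 mouse 12, 0 passed in FK506 minus healthy (Nr3c1 -0.55, adjusted p 0.125). Array weights weight each library by how well it follows the model. Genes passing out of 15035 stand in brackets beside each count of members. Against healthy mice, members passing with array weights were 3 in vehicle (5519), 8 in MMF (8889), 4 in FK506 (8559) and 5 in multi-target mice (9926). They were 5 in MMF minus vehicle (6753, up from 238), 5 in multi-target minus MMF (6935) and 1 in multi-target minus FK506 (2049). There were 2 in prednisone minus MMF (2739), 3 in MMF minus FK506 (4023) and 6 in the F test (8799). Leaving out 1 mouse at a time, the counts ranged from 0 to 1 in vehicle minus healthy, 0 to 5 in MMF minus vehicle, 1 to 7 in MMF minus healthy, 0 to 1 in FK506 minus healthy, 2 to 3 in prednisone minus healthy, 1 to 2 in multi-target minus healthy, 0 to 4 in multi-target minus MMF, 0 to 3 in prednisone minus MMF, 0 to 2 in MMF minus FK506 and 0 to 2 in the F test. The highest counts in the MMF comparisons and the F test came without MMF mouse 1, where 9.2% to 38.6% of all genes passed. A group left with 2 mice borrows the spread of the others. The cause of these changes was not tested. Nr3c1 in prednisone and multi-target minus healthy and Zbtb16 in MMF and prednisone minus healthy passed in 15 of 15 alternatives each. No paired analysis was possible because each number names a single animal within its group. Healthy and MMF mouse 1 are different animals, as are healthy and FK506 mouse 3.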

Other observations

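Sgk1 acts on the epithelial sodium channel. The other 12 aldosterone-responsive sodium channel genes include the channel subunits Scnn1a, Scnn1b and Scnn1g and the mineralocorticoid receptor Nr3c2. Averaged over the list, they were close to level across the groups. By limma 0 of 12 passed in each treatment against vehicle mice and in each group against healthy mice. Without MMF mouse 1, 2 rose and 1 fell in MMF against vehicle mice, where 36.8% of all genes passed in either direction. Their mean log2 value per mouse lay between 12.80 and 13.18 in all 18 libraries. Against vehicle mice the medians were 0.02 in MMF, 0.22 in FK506, 0.17 in prednisone and 0.06 in multi-target mice. Against FK506 mice, 12 of 12 were lower in MMF mice, with a median of -0.15 beside -0.04 for all genes. In multi-target against FK506 mice 10 were lower and 2 higher, with a median of -0.09 beside -0.01. None passed in these 2 comparisons. Scnn1a gave 0.68 ± 0.29 in MMF (adjusted p 0.142), 0.54 in prednisone (adjusted p 0.943) and 0.69 in multi-target mice (adjusted p 0.284). Usp45, a deubiquitinase gene induced by aldosterone, gave -0.31 ± 0.10 in MMF mice (adjusted p 0.0763).

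Of 16 immediate early genes, which respond within minutes to tissue handling and stress, 14 were measured. In vehicle against healthy mice 5 rose and 0 fell, led by Atf3 (3.15), Klf4 (1.43), Klf2 (1.01) and Nr4a1 (1.63), where 15.7% of all genes rose. The count was 1 without healthy mouse 1, 0 without vehicle mouse 36 (median 0.53, against 0.92 in full) 2 without healthy mouse 3 and 3 without healthy mouse 2 or vehicle mouse 17. They averaged 7.77, 8.79 and 9.19 in the 3 healthy mice, 10.64 in vehicle mouse 36 and 10.45 in MMF mouse 14, beside 8.86 and 8.84 in MMF mice 1 and 27. MMF mice 14 and 27, alike in Per1, Klf9 and Errfi1, were thus unlike in this list.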
